A study of Homo sapiens with 15 samples.

Results

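The endoplasmic reticulum folds secreted and membrane proteins, and the genes described here encode its chaperones and the response to proteins that fail to fold. The 10 genes are HSPA5, HSP90B1 and CALR (chaperones), PDIA4 and PDIA6 (protein disulfide isomerases), DNAJB9 and DNAJC3 (co-chaperones of HSPA5), HERPUD1 and SEL1L (degradation of misfolded proteins) and XBP1 (transcription factor). They were chosen by name, and all 10 of 10 were found among the 30972 genes on the array, with 14 of its 41000 probes. MDA-MB231 is a human cell line from a triple-negative breast tumour, and the study asked how its transcriptome changes when CtBP2, an NADH-dependent transcriptional co-regulator, is silenced or inhibited. It compared cells with stable RNA interference of CtBP2 (shCtBP2, a puromycin-selected short hairpin), cells treated with the inhibitor HIPP and cells treated with the inhibitor P4, each on 5 two-colour arrays. HIPP is the oxime and P4 the hydrazone of phenylpyruvate, both as sodium salts. Cells were collected at 24 h, and treated RNA (Cy5) was hybridised with control RNA (Cy3) on every array. The labels name untreated MDA-MB231 cells as the control of all 15 arrays, whereas the methods set shCtBP2 cells against cells with a scrambled sequence. Concentrations of HIPP and P4 on the arrays are not given in the sources used here, so that a difference between the compounds and a difference in dose cannot be told apart. Each value is the log2 ratio of treated over control signal, relative to the labelled RNA of the whole culture, in which a change per cell and a change in the cells present cannot be told apart.

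Membrane proteins of the endoplasmic reticulum sense unfolded proteins. IRE1 (ERN1) splices the mRNA of XBP1, ATF6 is cut to release a transcription factor, and PERK (EIF2AK3) phosphorylates eIF2alpha, which lowers general translation and raises ATF4. XBP1 and ATF6 act on promoters through the endoplasmic reticulum stress element (ERSE), and HSPA5, a chaperone also known as BiP, is the most used readout of them. ATF4 and its targets also answer to kinases that sense amino acid shortage, viral RNA and haem shortage, and that pathway is called the integrated stress response.

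The promoters of the genes are shown first, because they show which members hold an exact match to the element of the ATF6 and XBP1 branch near their start. Elements with a mismatch or further away were not searched for. In RefSeq windows (GRCh38.p14) of 250 bases before to 50 after each annotated start, 13 windows matched the 10 genes. The ERSE (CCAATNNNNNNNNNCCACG, on either strand) was present in 5 of these 13 windows, those of HSPA5, HSP90B1, CALR, PDIA6 and XBP1, against 0.0769% of all 35116 windows. The ERSE-II (ATTGGNCCACG) was present in the window of HERPUD1 and in 0.0541% of all windows. The members were chosen as genes of this response, so that these contrasts with all windows are no independent test. The stretches around the matches are printed 5′ to 3′ on the gene's strand, with the match in capitals.
HSPA5, chr9:125241366-125241434, minus strand: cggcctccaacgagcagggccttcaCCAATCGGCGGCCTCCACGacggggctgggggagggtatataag
HSP90B1, chr12:103930191-103930364, plus strand: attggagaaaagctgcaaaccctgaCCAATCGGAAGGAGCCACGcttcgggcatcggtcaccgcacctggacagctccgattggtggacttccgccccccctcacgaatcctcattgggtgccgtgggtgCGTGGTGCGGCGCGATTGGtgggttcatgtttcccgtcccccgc
CALR, chr19:12938359-12938427, plus strand: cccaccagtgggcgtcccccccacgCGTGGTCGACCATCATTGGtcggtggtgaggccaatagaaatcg
PDIA6, chr2:10812828-10812896, minus strand: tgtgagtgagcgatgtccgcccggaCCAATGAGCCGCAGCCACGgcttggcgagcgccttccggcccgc
XBP1, chr22:28800578-28800646, minus strand: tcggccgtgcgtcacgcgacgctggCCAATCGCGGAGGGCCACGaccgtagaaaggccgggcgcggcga
HERPUD1, chr16:56932000-56932060, plus strand: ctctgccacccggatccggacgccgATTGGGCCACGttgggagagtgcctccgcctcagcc

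HSP90B1 held 2 matches in opposite orientation, between 194 and 71 bases before the start (positions -194 to -176 and -89 to -71). The core of the unfolded protein response element (TGACGTG) matched in none of the 13 windows and in 1.97% of all windows. The ATF4 element (TGATGNAA) matched in 1 member window, that of HERPUD1, and in 3.62% of all windows. DNAJB9, DNAJC3, SEL1L and PDIA4 had no match to any of these 4 letter patterns in their windows.

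**Figure D1:**
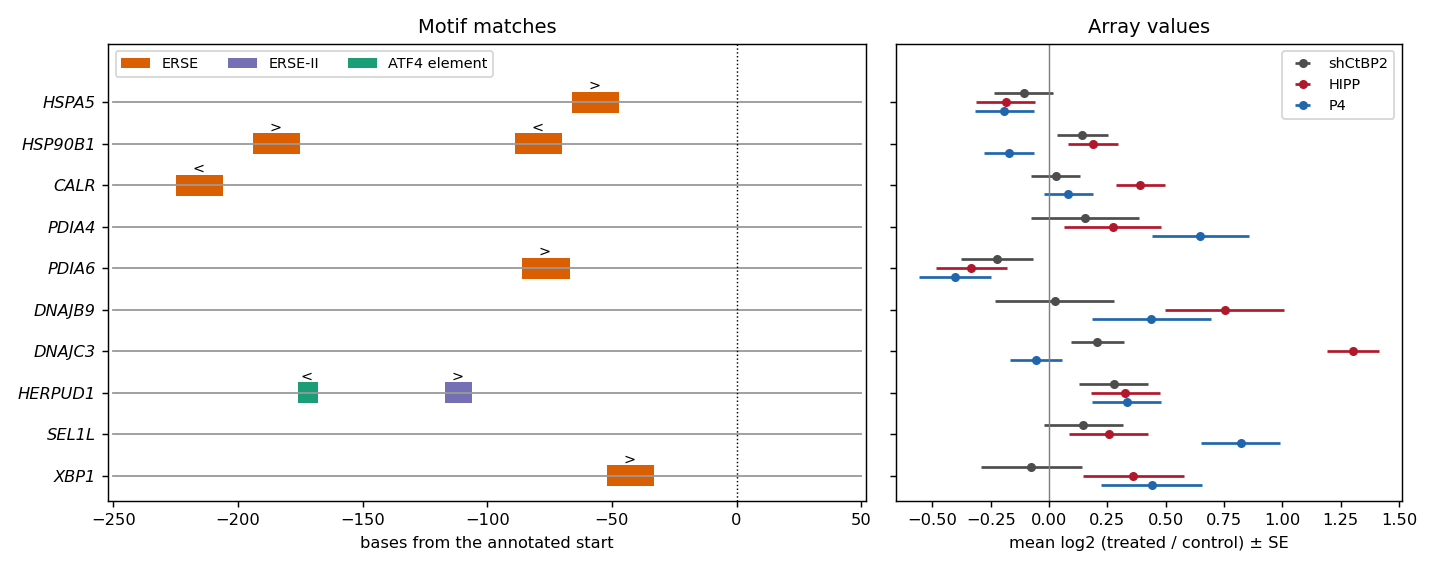
Left, positions of the motif matches in the promoter window of each gene, in bases from the annotated start (dotted line), with > and < for the plus and minus orientation. Right, mean log2 ratio of treated over control for the same genes in shCtBP2, HIPP and P4 (5 arrays each, PDIA4 with shCtBP2 4 arrays, bars are the standard error of the fit). Genes with an ERSE lie on both sides of 0 with HIPP, for instance PDIA6 at -0.33 and CALR at 0.39.

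The cell line's markers VIM, CD44, MSN, CAV1 and AXL were well above background in both channels of all 15 arrays, and CDH1, PGR and PTPRC (epithelial, hormone receptor and blood cell markers) on 0 of 15 in either channel. The luminal genes EPCAM, ERBB2, FOXA1, GATA3 and KRT19 were above background on all 15 too, and CD3E, DES, MYH11, PECAM1 and VWF, which mark other cells, on 2 to 15, so that this threshold alone does not tell cell types apart. CTBP2 itself was lower on 5 of 5 shCtBP2 arrays (log2 ratio -0.59 to -0.29), and its paralog CTBP1 was higher on 5 of 5 (0.18 to 0.49). Of the line's markers, CAV1 fell by 2.07 with HIPP, by 1.38 with P4 and by 0.48 in shCtBP2 cells and AXL by 1.05 with HIPP and 0.75 with P4, while with HIPP and P4 CD44 rose by 1.40 and 0.45 and MSN by 1.04 and 0.43, all called. Replicates of a treatment correlated over all genes at r of 0.299 to 0.569 (shCtBP2), 0.416 to 0.755 (HIPP) and 0.0119 to 0.695 (P4), the lowest being P4 replicates 1 and 3. Of the 4 slides, the first carried the P4 arrays 1 to 4 and the fourth the shCtBP2 arrays 3 to 5. The first slide was scanned on another day than the other 11 arrays, so that for P4 1 to 4 scan day, slide and treatment cannot be told apart. The P4 array 5 shared slide 2 with HIPP 1 to 3, and HIPP 4 and 5 shared slide 3 with shCtBP2 1 and 2. The dyes were not swapped, so a dye effect of a probe adds to its ratio in all treatments.

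With HIPP, DNAJC3, DNAJB9 and CALR rose, 3 of the 8 members tested, and 0 fell. With P4, SEL1L and PDIA4 rose, 2 of the 9 tested, and 0 fell. In shCtBP2 cells, 0 of the 9 tested were called, and 0 had an unadjusted p under 0.05 or were called by the methods' t-test. Without HIPP replicate 4, 5 members were called with HIPP, and without HIPP replicate 5 only DNAJC3 was, while DNAJB9 missed the threshold (0.76, adjusted p = 0.053) and CALR (0.33) fell below the variability limit described next and was not tested. All ratios are relative to the dye normalization of each array. With no dye normalization, an alternative chosen after seeing the data, the HIPP means were 0.625 for DNAJC3, 0.075 for DNAJB9 and -0.23 for CALR, and the P4 means 0.73 for SEL1L and 0.60 for PDIA4. Genes were called at a Benjamini-Hochberg adjusted p below 0.05 in a limma fit, after removal of the 11% of genes with the smallest interquartile range in a treatment, which left out HSP90B1 for shCtBP2, HERPUD1 and PDIA4 for HIPP, and DNAJC3 for P4. Over all 27565 genes tested per treatment, 48.7% were called with HIPP (24.8% higher), 31.8% with P4 (17% higher) and 13.4% in shCtBP2 cells (6.52% higher, 6.85% lower). Without the variability limit, when all 30972 genes were tested, the shares were 45% (HIPP), 29.6% (P4) and 11.4% (shCtBP2), and the same numbers of members, 3, 2 and 0, were called. By share, 37.5% of the members tested were called with HIPP and 22.2% with P4, all higher, which is below the background for both directions and somewhat above that for higher genes. The median log2 ratio of the 10 members was 0.30 with HIPP, 0.21 with P4 and 0.09 in shCtBP2 cells, beside 0.08, 0.11 and 0.04 over all genes tested. No member also passed the methods' fold-change thresholds of 2.5 (HIPP), 1.8 (P4) and 1.5 (shCtBP2), which 7.05, 8.46 and 6.53% of genes passed.

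**Figure D2:**
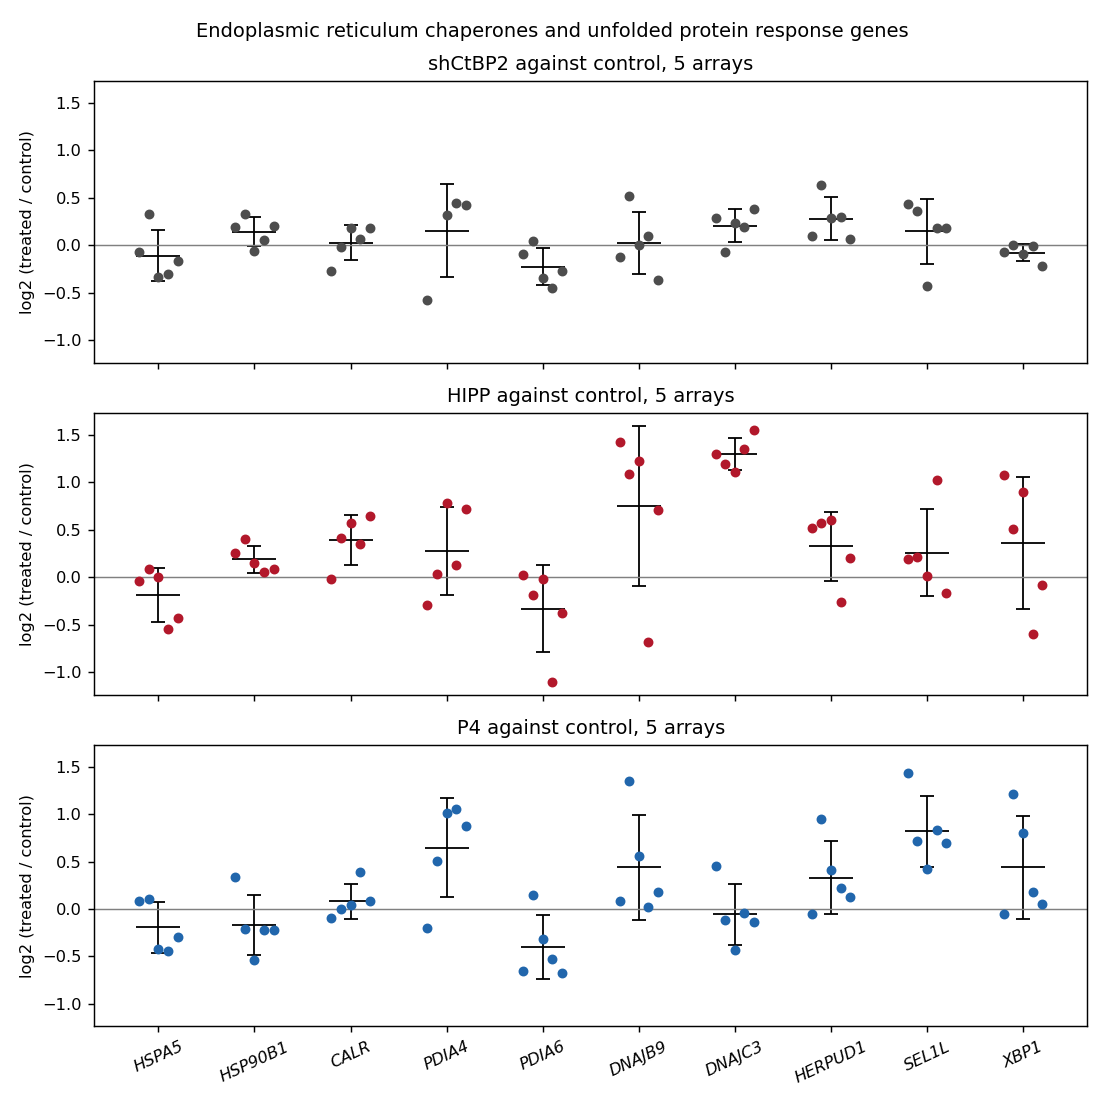
Log2 ratio of treated over control signal for the 10 genes, 1 point per array (5 arrays per treatment, 4 for PDIA4 in shCtBP2), in 3 panels for shCtBP2, HIPP and P4. Horizontal bars are means and whiskers 1 SD. DNAJC3 with HIPP stands at 1.11 to 1.55 on its 5 arrays, whereas DNAJB9 and XBP1 with HIPP spread from below 0 to above 1.

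DNAJC3 (also called p58IPK) is a lumenal co-chaperone of HSPA5 and an inhibitor of eIF2alpha kinases. Its log2 ratios with HIPP were 1.30, 1.20, 1.11, 1.35 and 1.55 on replicates 1 to 5, in shCtBP2 cells 0.29, -0.07, 0.24, 0.19 and 0.39, and with P4 0.45, -0.12, -0.43, -0.04 and -0.14. All HIPP arrays lay above all arrays of the other treatments, with no overlap, and the share of all genes that separate this way was not computed. The mean with HIPP was 1.30 ± 0.17 (SD, n = 5), or 2.46-fold (95% confidence interval 2.09 to 2.91), with an adjusted p of 3.1e-07. It was 0.21 ± 0.17 (n = 5) in shCtBP2 cells (adjusted p = 0.24) and -0.05 ± 0.32 (n = 5) with P4, where the gene was below the variability limit and had an adjusted p of 0.73 without that limit. On slide 2 the mean was 1.20 over 3 HIPP arrays and -0.14 on the P4 array, and on slide 3 it was 1.45 over 2 HIPP arrays and 0.11 over 2 shCtBP2 arrays. The DNAJC3 probe lies on chr13:95214001-95214144 (hg17, plus strand), where its 60 bases span 144 bases of genome and therefore cross an exon junction. Its sequence is given because the clearest change of the 10 genes rests on this 1 probe.
DNAJC3 probe A_23_P36962: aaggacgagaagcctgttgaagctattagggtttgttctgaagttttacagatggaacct

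DNAJB9 (ERdj4), the co-chaperone that returns HSPA5 to IRE1 and is induced by spliced XBP1, was uneven between arrays. With HIPP its log2 ratios were 1.43, 1.09, 1.22, -0.68 and 0.71, with P4 0.08, 1.35, 0.55, 0.02 and 0.18, and in shCtBP2 cells -0.12, 0.52, 0.00, 0.10 and -0.37. HIPP replicate 4 lay below all shCtBP2 and P4 arrays, while HIPP replicates 1 to 3 lay above 1. The mean with HIPP, 0.75 ± 0.84 (SD, n = 5), passed the threshold (adjusted p = 0.024), and lost it without replicate 1, 2, 3 or 5 (adjusted p 0.053 to 0.092) with slide as a block (0.64, adjusted p = 0.094), with background-subtracted signals (0.077), in separate fits (0.076) and by the methods' t-test (0.22). Without replicate 4 the mean was 1.11 (adjusted p = 4.6e-04), and the difference from shCtBP2 cells was 1.09 (adjusted p = 0.0081). With P4 the mean was 0.44 ± 0.55 (n = 5, adjusted p = 0.19).

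HSPA5 and HSP90B1 (GRP94), the abundant chaperones whose induction is the textbook sign of the response, were not called in any treatment. HSPA5 stood at -0.04, 0.09, 0.00, -0.55 and -0.44 with HIPP, at 0.09, 0.11, -0.42, -0.44 and -0.30 with P4, and at -0.07, 0.33, -0.34, -0.30 and -0.16 in shCtBP2 cells. The treatments overlapped fully, and the means were -0.19, -0.19 and -0.11 (adjusted p = 0.23, 0.25 and 0.64). The 95% confidence interval of HSPA5 with HIPP ran from -0.46 to 0.08, and with P4 between the same rounded bounds. HSP90B1 averaged 0.19 ± 0.14 (SD, n = 5) with HIPP and -0.17 ± 0.32 (n = 5) with P4 (adjusted p = 0.16 and 0.23). Without P4 replicate 1, its P4 mean was -0.30 and was called (adjusted p = 0.027). In shCtBP2 cells it averaged 0.14 ± 0.15 (n = 5, adjusted p = 0.44 without the variability limit).

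The averages of these 2 genes join probes that differed. For HSPA5, probe A_24_P98411 (chr9:125076703-125076762, hg17, minus strand) was below 0 on 5 of 5 HIPP arrays, with a mean of -0.52 ± 0.36 (SD, n = 5). Probe A_24_P18190 (chr9:125078978-125080023, crossing an exon junction) was above 0 on 4 of 5, with a mean of 0.14 ± 0.25 (n = 5). In a limma fit over all 41000 probes, made after these differences were seen, the first had an adjusted p of 0.021 and the second of 0.25. For HSP90B1, probe A_23_P2601 (chr12:102844003-102844062, plus strand) was below 0 on 5 of 5 HIPP arrays (mean -0.26, adjusted p = 0.054) and probe A_24_P150361 (chr12:102828659-102829125, crossing a junction) above 0 on 5 of 5 (mean 0.63, adjusted p = 0.024). The HSPA5 probe call was lost without HIPP replicate 4 or 5 (adjusted p = 0.081 and 0.092), and the HSP90B1 probe call without HIPP replicate 1 or 2 (0.086 and 0.079), with slide as a block (0.16) and with background-subtracted signals (0.073). With no dye normalization, HSP90B1 probe A_24_P150361 averaged -0.09 with HIPP and HSPA5 probe A_24_P98411 -1.2. The other HSP90B1 probe, A_23_P2601, was called lower with HIPP with the replicate block (adjusted p = 0.020), with the deposited value table (0.034) and without shCtBP2 replicate 1 (0.045). With P4, the means were -0.40 for A_24_P98411 (adjusted p = 0.083) and -0.25 for A_24_P150361 (adjusted p = 0.39). Without P4 replicate 1 they were -0.54 and -0.55, both called (adjusted p = 0.031 and 0.023), and the first was also called with the replicate block (0.015). The 2 junction probes lie upstream of their partners in the transcripts, and both are shown because they gave the higher ratio with HIPP. All 4 probes were well above background on every array.
HSPA5 probe A_24_P18190: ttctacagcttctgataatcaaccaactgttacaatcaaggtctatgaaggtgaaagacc
HSP90B1 probe A_24_P150361: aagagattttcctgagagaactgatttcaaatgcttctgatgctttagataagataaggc

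CALR, the calcium-binding lectin chaperone calreticulin, rose slightly with HIPP. Its log2 ratios were -0.02, 0.41, 0.57, 0.35 and 0.65 with HIPP, -0.10, 0.00, 0.04, 0.39 and 0.09 with P4, and -0.27, -0.02, 0.18, 0.07 and 0.18 in shCtBP2 cells. HIPP replicate 1 overlapped the other treatments, and 3 of the HIPP arrays lay above all of them. The mean with HIPP was 0.39 ± 0.26 (SD, n = 5), or 1.31-fold (95% confidence interval 1.12 to 1.53, adjusted p = 0.0067), and the call was lost at the same fold when each treatment was fitted on its own (adjusted p = 0.055) and by the methods' t-test (0.073). With P4 it was 0.08 (adjusted p = 0.56), and 0.29 with background-subtracted signals (adjusted p = 0.041), and in shCtBP2 cells 0.03 (adjusted p = 0.89).

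The disulfide isomerases PDIA4 and PDIA6, which bind HSPA5 in the lumen and form disulfide bonds in client proteins, had mean ratios of opposite sign with P4. PDIA4 stood at -0.20, 0.50, 1.02, 1.05 and 0.87 with P4 and at -0.29, 0.03, 0.78, 0.12 and 0.72 with HIPP. In shCtBP2 cells it stood at -0.58, 0.32, 0.45 and 0.43 on replicates 1, 3, 4 and 5, the spot of replicate 2 being marked as an outlier. In each treatment replicate 1 was the lowest, and the 3 treatments overlapped. The P4 mean of 0.65 ± 0.52 (SD, n = 5) passed the threshold (adjusted p = 0.029), and lost it without replicate 3, 4 or 5 (adjusted p 0.090 to 0.108) with slide as a block (1.17, adjusted p = 0.085), in separate fits (0.074) and by the methods' t-test (0.17). PDIA6 averaged -0.33 ± 0.46 (n = 5) with HIPP, -0.40 ± 0.34 (n = 5) with P4 and -0.22 ± 0.20 (n = 5) in shCtBP2 cells, lower on 4 of 5 arrays in each. None of the 3 was called (adjusted p = 0.084, 0.059 and 0.37). The P4 value was called with slide as a block (-1.01, adjusted p = 0.032), and with the replicate number as a block PDIA6 was called lower with both HIPP and P4 (adjusted p = 0.043 and 0.027). It was also called lower with P4 with probes well above background alone (adjusted p = 0.037), without P4 replicate 2 (-0.54, 0.020) and without HIPP replicate 4 (0.019).

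SEL1L, the partner of the ubiquitin ligase HRD1 in degradation from the endoplasmic reticulum, rose with P4 when its 2 probes were averaged. The averages with P4 were 1.43, 0.71, 0.42, 0.84 and 0.70, with a mean of 0.82 ± 0.37 (SD, n = 5, adjusted p = 0.0023). On the P4 arrays the dimmer of the 2 probes, A_24_P219114, was well above background in the control channel on 3 of 5, so that the size of this ratio is uncertain. With HIPP the averages were 0.19, 0.21, 0.02, 1.03 and -0.17, with a mean of 0.26 (adjusted p = 0.22), and in shCtBP2 cells 0.43, 0.37, -0.43, 0.18 and 0.18, with a mean of 0.15 (adjusted p = 0.64). With another background and dye correction (normexp and loess), the HIPP mean was 0.51 and was called (adjusted p = 0.0040). The P4 call was lost by the methods' t-test (0.21) and with slide as a block (0.78, adjusted p = 0.15), in which the P4 value leans on replicate 5, the P4 array that shared a slide with another treatment.

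The absence of a SEL1L call with HIPP came with opposite ratios of the probes. Probe A_23_P88411 (chr14:81012684-81012743, hg17, minus strand), well above background on all 15 arrays in both channels, stood at 1.21, 2.21, 1.04, 2.11 and 1.49 with HIPP and at 2.61, 0.72, -0.05, 1.51 and 1.64 with P4. In shCtBP2 cells the same probe stood at 0.41, 0.30, 0.01, 0.05 and 0.04. All 5 HIPP arrays lay above all shCtBP2 arrays, and the share of all probes that do so was not computed. Probe A_24_P219114 (chr14:81007814-81007873) had a mean of -1.10 ± 0.74 (SD, n = 5) with HIPP, and its treated channel was well above background on 2 of those 5 arrays. In the fit over probes, the brighter probe rose with HIPP (1.61, adjusted p = 2.1e-04) and with P4 (1.29, adjusted p = 0.0029), the latter not with slide as a block (1.60, adjusted p = 0.10). The dimmer probe fell with HIPP (adjusted p = 0.0020) but not after normexp and loess (-0.12, adjusted p = 0.13). With the brightest probe of each gene, SEL1L was called with HIPP at 1.61 (adjusted p = 2.0e-04), and with probes well above background alone likewise (adjusted p = 1.4e-06).

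**Figure D3:**
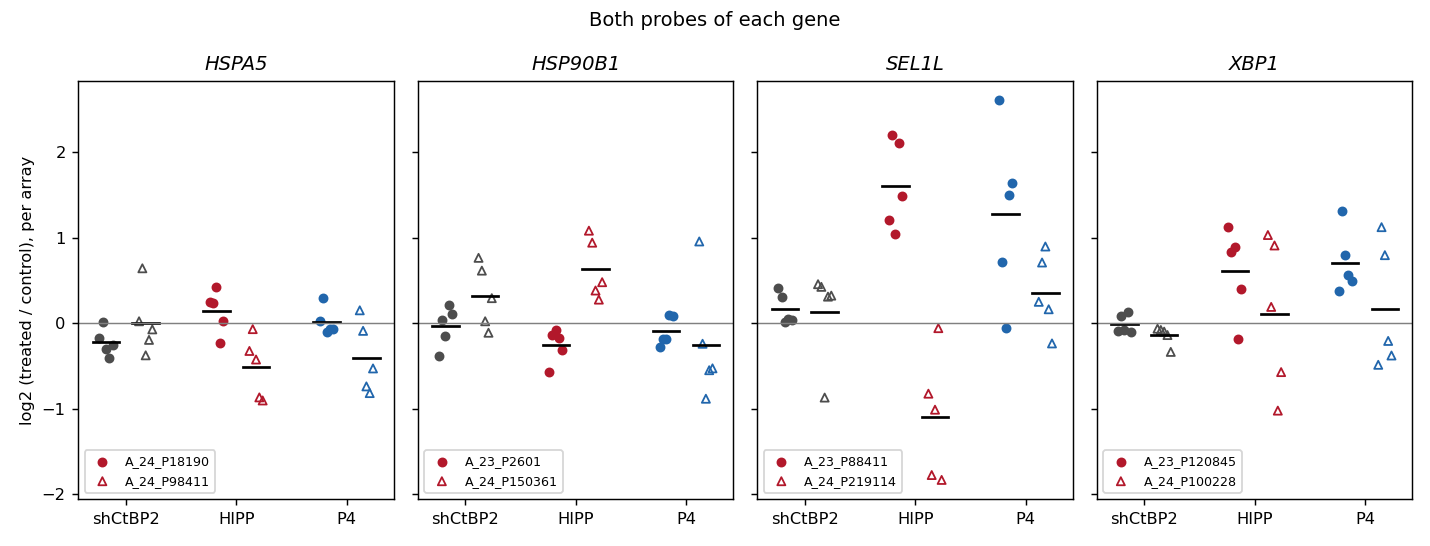
Log2 ratio of treated over control on each array for both probes of HSPA5, HSP90B1, SEL1L and XBP1 in shCtBP2, HIPP and P4 (5 arrays each, black bars are means, filled circles and open triangles are the 2 probes). With HIPP the 2 SEL1L probes lie on opposite sides of 0, at means of 1.61 and -1.10.

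XBP1, the transcription factor made active by IRE1 splicing, and HERPUD1, a membrane protein of the degradation complex, were not called with averaged probes. XBP1 stood at 1.08, 0.51, 0.90, -0.60 and -0.08 with HIPP, at -0.05, 1.22, 0.80, 0.18 and 0.06 with P4, and at -0.08, 0.00, -0.09, 0.00 and -0.22 in shCtBP2 cells. The HIPP arrays spread on both sides of the narrow shCtBP2 range, and 4 of the P4 arrays lay above it. The means were 0.36 ± 0.70 (SD, n = 5, adjusted p = 0.18) with HIPP, 0.44 ± 0.55 (n = 5, adjusted p = 0.13) with P4 and -0.08 ± 0.09 (n = 5, adjusted p = 0.85) in shCtBP2 cells. Without HIPP replicate 4, the HIPP mean was 0.60 and passed the threshold (adjusted p = 0.028). The brighter probe of XBP1, A_23_P120845 (chr22:27515287-27515346, hg17, minus strand), was called with both compounds, at 0.61 with HIPP (adjusted p = 0.0060, higher on 4 of 5 arrays) and 0.71 with P4 (adjusted p = 0.0046, higher on 5 of 5). Its partner A_24_P100228 (chr22:27517660-27517719) had means of 0.11 and 0.17 (adjusted p = 0.77 and 0.66). With slide as a block the brighter probe's P4 value was 0.14 (adjusted p = 0.76). With no dye normalization its means were -0.02 with HIPP and 0.78 with P4. Spliced and unspliced XBP1 mRNA were not told apart here.

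HERPUD1 stood at 0.52, 0.57, 0.60, -0.26 and 0.20 with HIPP, at -0.05, 0.95, 0.42, 0.22 and 0.13 with P4, and at 0.09, 0.63, 0.29, 0.30 and 0.07 in shCtBP2 cells. The 3 treatments overlapped, and the means were 0.33 ± 0.37, 0.33 ± 0.39 and 0.28 ± 0.23 (SD, n = 5 each). The adjusted p was 0.097 with P4 and 0.24 in shCtBP2 cells, and 0.083 with HIPP without the variability limit. The P4 value was called with the replicate block (adjusted p = 0.038), and was -0.14 with slide as a block (adjusted p = 0.75).

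XBP1, DNAJB9 and HERPUD1, picked after their values were seen, varied from array to array in a like order that other genes shared. With HIPP, replicate 4 was the lowest array for all 3 genes and replicate 5 the next, and both lay on slide 3, whereas replicates 1 to 3 lay on slide 2. The mean of XBP1 was 0.83 on the HIPP arrays of slide 2 and -0.34 on those of slide 3, that of DNAJB9 1.25 and 0.01, and that of HERPUD1 0.56 and -0.03. With P4, replicate 2 was the highest for all 3 genes, on slide 1 with replicates 1, 3 and 4. DDIT3 (CHOP), the pro-apoptotic factor downstream of ATF4, stood at 2.07, 1.52, 1.799, 0.17 and 0.98 with HIPP and at 0.24, 1.90, 1.17, 0.32 and 0.77 with P4. Its lowest HIPP array was again replicate 4 and its highest P4 array again replicate 2. ATF4 did not show this order, at 1.34, 1.79, 1.61, 1.69 and 1.56 with HIPP and 1.497, 1.30, 1.22, 1.69 and 1.82 with P4, and neither did DNAJC3. HSPA5 and PDIA6 were also lowest on HIPP replicates 4 and 5 and highest on P4 replicate 2. HIPP replicate 4 was the lowest and P4 replicate 2 the highest for 5 of 10 members, for 35 of 94 other genes of the endoplasmic reticulum lists (37.2%), for 3 of 14 of the ATF4 pathway (21.4%), and for 11.8% of the 30866 genes measured on all these arrays. The part of the slide in this order was not tested, since each treatment has few arrays per slide.

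**Figure D4:**
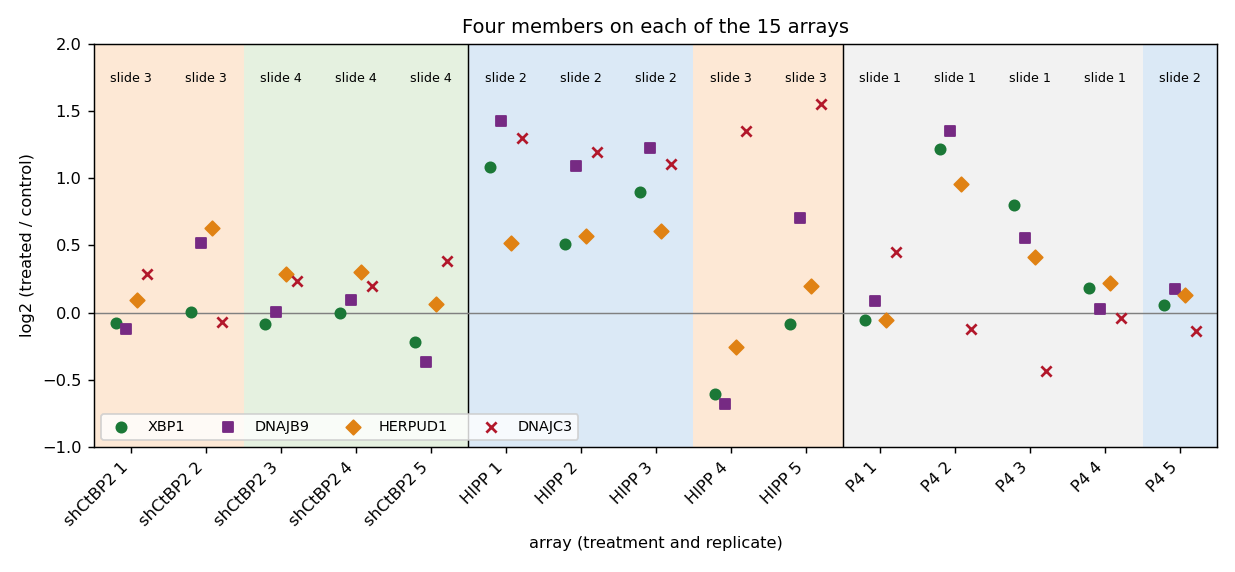
Log2 ratio of treated over control for XBP1, DNAJB9, HERPUD1 and DNAJC3 on each of the 15 arrays, ordered by treatment and replicate, with shading for the 4 slides. Among the HIPP arrays, XBP1, DNAJB9 and HERPUD1 are lowest together on replicate 4, and among the P4 arrays highest together on replicate 2. DNAJC3 stays between 1.11 and 1.55 on all HIPP arrays.

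The treatments were then compared with each other, 10 differences for the members called in either treatment of a pair, with p-values adjusted over all genes. DNAJC3 was higher with HIPP than in shCtBP2 cells by 1.09 (95% confidence interval 0.76 to 1.43, adjusted p = 1.2e-04), the 1 member called of 7 tested, where 26.3% of all genes were called (26.7% without the variability limit). HIPP exceeded P4 for DNAJC3 by 1.36 (1.02 to 1.69), a difference left untested by the variability limit for P4, with an adjusted p of 2.6e-04 without that limit, where 10.9% of genes were called. With the limit, 0 of 7 members were called between HIPP and P4 (2 at an unadjusted p under 0.05), beside 10.5% of genes. Between P4 and shCtBP2, 0 of 8 were called (1 at an unadjusted p under 0.05), beside 11.9% of genes. SEL1L differed between P4 and shCtBP2 by 0.67 (0.16 to 1.19, adjusted p = 0.084), and PDIA4 by 0.49 (-0.17 to 1.16, adjusted p = 0.36). With the replicate block both were called (0.67 and 0.54, adjusted p = 0.041 and 0.043). Between HIPP and P4, the difference was 0.31 for CALR (-0.01 to 0.63), 0.31 for DNAJB9 (-0.45 to 1.08), -0.38 for PDIA4 (-1.01 to 0.25) and -0.57 for SEL1L (-1.08 to -0.05), with adjusted p of 0.23, 0.71, 0.50 (without the limit) and 0.17. Without HIPP replicate 4 it was -0.76 (adjusted p = 0.032). On the brighter SEL1L probe alone, the difference between the oxime and the hydrazone had the opposite sign, 0.33 (adjusted p = 0.71). Between HIPP and shCtBP2, CALR differed by 0.36 (0.04 to 0.68, adjusted p = 0.090, and 0.037 with the replicate block) and DNAJB9 by 0.73 (-0.04 to 1.497, adjusted p = 0.16). These comparisons share arrays pairwise.

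The rest of the pathway was read from 6 lists of other genes. A gene is named below for a treatment in which its change was among the 2 largest of its list, and may also have been called in another. Of the ATF4 pathway, with HIPP 13 of 14 tested rose, with P4 14 of 14, and in shCtBP2 cells 5 of 13, and 0 fell in any treatment. Over all genes tested, 24.8, 17 and 6.52% were called higher in the same order. The lists were chosen with earlier results of these data known, so that these counts are no independent result. The median log2 ratios of the ATF4 pathway genes were 1.51, 1.5 and 0.34, beside 0.08, 0.11 and 0.04 over all genes tested. NUPR1, a stress-induced chromatin protein, rose most with both compounds, by 2.90 with HIPP and 2.85 with P4 (adjusted p = 2.3e-10 and 7.1e-10), and by 0.69 in shCtBP2 cells (adjusted p = 4.3e-04). PPP1R15A (GADD34), the phosphatase subunit that reverses eIF2alpha phosphorylation, rose by 2.28 with HIPP (adjusted p = 6.2e-09). DDIT4, an inhibitor of mTORC1, rose by 2.61 with P4 (adjusted p = 3.0e-08), by 1.73 with HIPP (adjusted p = 1.3e-07) and by 1.10 in shCtBP2 cells (adjusted p = 1.1e-04). STC2 (stanniocalcin-2) was the 1 gene of the list not called with HIPP, at -0.07. In shCtBP2 cells the count of 5 fell to 2 without replicate 3, 4 or 5.

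Among 11 sensors, membrane-bound transcription factors and their proteases, 6 rose and 1 fell of 11 tested with HIPP, 3 rose of 9 with P4, and 0 of 6 were called in shCtBP2 cells (1 at an unadjusted p under 0.05 in the limma fit). This is 63.6% called with HIPP and 33.3% with P4, beside 48.7 and 31.8% of all genes. ERN1 (IRE1) rose with HIPP on 5 of 5 arrays, by 0.56 ± 0.14 (SD, n = 5, adjusted p = 0.0073), and stood at 0.17 with P4 (adjusted p = 0.41) and 0.29 in shCtBP2 cells (adjusted p = 0.24). The brightest ERN1 probe in shCtBP2 cells stood at 0.62 (adjusted p = 0.024). ATF6 rose with HIPP by 0.65 ± 0.37 (n = 5, adjusted p = 0.0043) and stood at 0.37 with P4 (adjusted p = 0.098). EIF2AK3 (PERK) was not called, at -0.41 ± 0.76 with HIPP and -0.39 ± 0.70 with P4 (n = 5 each, adjusted p = 0.19 and 0.24). Of the CREB3 family, factors cut from the membrane like ATF6, CREB3L4 rose by 1.44 with HIPP and 0.69 with P4 (adjusted p = 7.5e-07 and 0.0015), CREB3L2 by 1.25 with HIPP and CREB3L3 by 0.88 with P4 (adjusted p = 7.8e-05 and 0.0069).

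The counts of the next lists stand beside all-gene shares of 48.7% called with HIPP, 31.8% with P4 and 13.4% in shCtBP2 cells. Differences between treatments were fitted for their genes too, but are not given here except for P4HB below. Of the 19 genes of chaperones, co-chaperones and glycoprotein quality control, 9 rose and 2 fell of 14 tested with HIPP, 4 rose and 2 fell of 14 with P4, and 2 fell of 15 in shCtBP2 cells, which is 78.6, 42.9 and 13.3% called. Their median over all 19 was 0.35, -0.01 and -0.09. DNAJC1, a co-chaperone at the membrane, rose by 1.13 with HIPP and 0.53 with P4 (adjusted p = 6.7e-07 and 0.0017), and SERPINH1 (HSP47), the collagen chaperone, by 1.09 with HIPP (adjusted p = 4.3e-05). UGGT1, which tests the folding of glycoproteins, rose with HIPP by 1.02 and with P4 by 0.62 (adjusted p = 7.5e-07 and 2.9e-04) and fell in shCtBP2 cells by 0.64 (adjusted p = 6.4e-04), and MOGS, a glucosidase, fell there by 0.34 (adjusted p = 0.018). Of 16 other disulfide exchange genes, 5 rose and 1 fell of 10 tested with HIPP, 1 rose and 2 fell of 11 with P4, and 1 fell of 12 in shCtBP2 cells, which is 60, 27.3 and 8.33% called. ERO1B, an oxidase that recharges disulfide isomerases, rose by 1.31 with HIPP and 0.71 with P4 (adjusted p = 2.8e-05 and 0.0075). TXNDC12 fell by 0.75 with HIPP (adjusted p = 0.0096), and AGR2 fell by 1.29 with P4 and by 1.11 in shCtBP2 cells (adjusted p = 0.0034 and 0.018).

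Of 26 other degradation genes, 10 rose and 3 fell of 19 tested with HIPP, 3 rose of 13 with P4, and 2 fell of 19 in shCtBP2 cells, which is 68.4, 23.1 and 10.5% called. SELENOS and FAF2, adaptors of the p97 ATPase, rose with HIPP by 0.94 and 0.91 (adjusted p = 7.7e-05 and 9.6e-05), the first not with its brightest probe (0.23, adjusted p = 0.19). DERL1 and EDEM1 rose with P4 by 0.43 and 0.39 (adjusted p = 0.0016 and 0.020), and AUP1 and OS9 fell in shCtBP2 cells by 0.60 and 0.34 (adjusted p = 0.0023 and 0.022). Of 24 translocation and transport genes, 6 rose and 4 fell of 20 tested with HIPP, 3 rose and 2 fell of 15 with P4, and 1 rose and 2 fell of 21 in shCtBP2 cells, which is 50, 33.3 and 14.3% called and close to the all-gene shares. KDELR2, the receptor that returns chaperones from the Golgi, rose by 1.04 with HIPP and 0.96 with P4 (adjusted p = 2.8e-06 and 2.8e-05), and SPCS3, a signal peptidase subunit, by 1.20 with HIPP (adjusted p = 9.9e-05). SEC62 fell by 0.67 with P4 and by 0.99 with HIPP (adjusted p = 7.9e-04 and 9.3e-06), but with P4 its brightest probe stood at 0.28. SRPRA fell by 0.46 and SEC61B rose by 0.34 in shCtBP2 cells (adjusted p = 0.0021 and 0.014). Over these 4 lists together, 30 genes rose and 10 fell of 63 tested with HIPP (63.5% called), 11 rose and 6 fell of 53 with P4 (32.1%), and 1 rose and 7 fell of 67 in shCtBP2 cells (11.9%). The methods' t-test called 14 and 1, 1 and 2, and 3 and 6 in the same order, and 13, 12 and 3 higher genes of the ATF4 pathway.

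**Figure D5:**
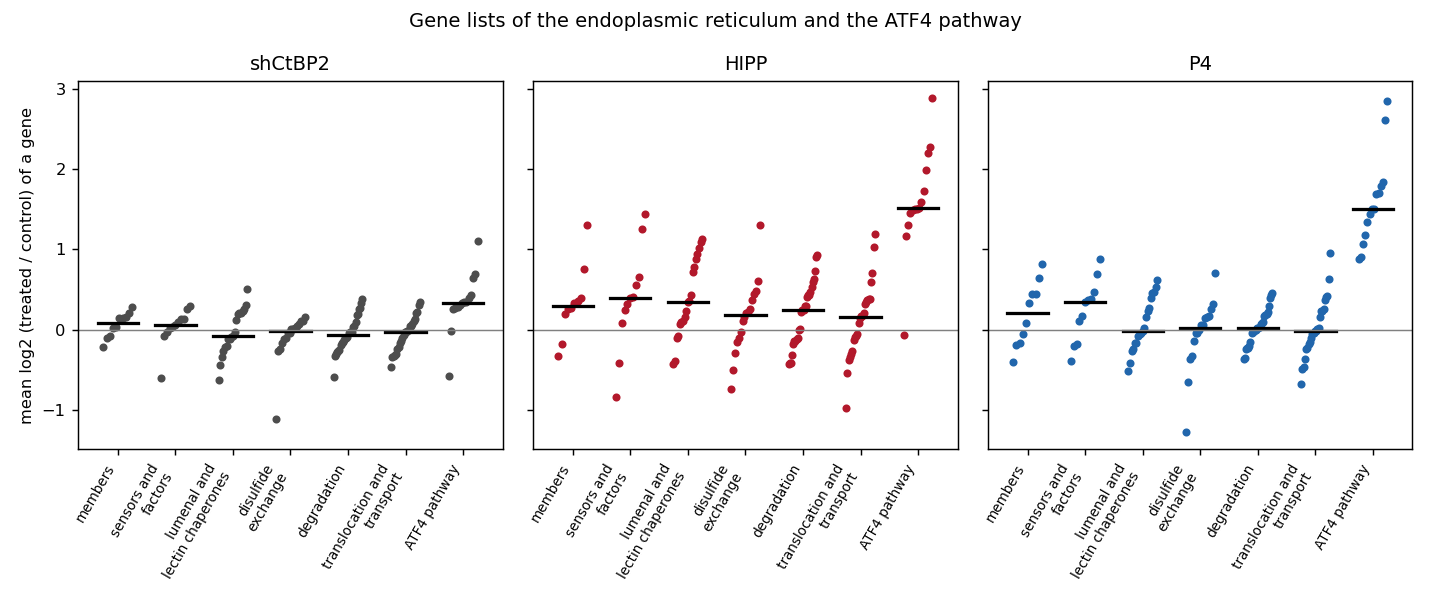
Mean log2 ratio of treated over control, 1 point per gene (mean over the arrays of a treatment), for the 10 members and 6 lists of other genes in shCtBP2, HIPP and P4, with black bars at the median of each list. The ATF4 pathway list stands at medians of 1.51 with HIPP and 1.5 with P4, while the medians of the other lists lie between -0.09 and 0.40.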

How the data were processed

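RNA of treated and control MDA-MB231 cells was hybridised to 15 two-colour Agilent whole human genome arrays. The authors ran Feature Extraction (version 9.5.3.1 per the file headers), which subtracts background and normalizes the dyes, and deposited signal intensities and log10 ratios of Cy5 over Cy3 per spot. From these, log2 ratios were computed for 43376 gene spots an array, leaving out 78 to 265 spots marked as non-uniform or outliers, and spots, then probes of a gene, were averaged. Between 64.9 and 81% of gene spots of a channel were well above background, and 0 were saturated. Precision is set by the number of arrays.

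All 15 arrays entered 1 limma fit (version 3.58.1) with a mean per treatment, tested against 0 and between treatments, with Benjamini-Hochberg adjustment over all genes measured on at least 3 of 5 arrays and outside the lowest 11% of interquartile range over a treatment's 10 channel signals. SD are over arrays, and 95% confidence intervals come from the fit. The fit was tested on simulated ratios of 30972 genes for HIPP, where it recovered 24% of genes changed by 0.5, 60% by 1, 94% by 1.5 and 98% by 2 (log2). Only 50 genes per size were changed, the noise was independent between arrays, and no variability limit was used. On the real arrays 48.7% of genes were called with HIPP, so that these shares do not give the sensitivity of the fit there.

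Groups and replicate numbers came from the sample titles. The labels call the 5 samples of a group biological replicates. Members and lists were chosen with earlier results of these data known. Genes were named by rule: all members, ERN1, EIF2AK3 and ATF6, and, per list and treatment, the 2 genes with the largest change past the threshold and in 1 direction on all arrays. DDIT3 and ATF4 by array and STC2 were named after their values were seen. Probe positions are those of the array annotation (hg17), and promoter windows are RefSeq's. Alternatives were other background and dye corrections, the deposited value table, filters, the brightest probe, slide and replicate blocks, separate fits, the methods' t-test (Student's test between the 2 channels) and leaving out each array. Protein sequences were not used here.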

Additional observations from a re-analysis of the deposited data

Results flagged for a closer look

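Within a treatment, 72 sets of 5 arrays, of the members and the named genes, were checked for an array whose gap to the nearest other exceeded 0.71 of the range, a limit that chance passes in about 5% of sets, and 3 passed. CREB3L2 with HIPP stood at 0.43 on replicate 4, and its nearest other array at 1.32. SELENOS with HIPP stood at 0.10 on replicate 4, and its nearest other array at 1.09. KDELR2 with P4 stood at 0.49 on replicate 1, and its nearest other array at 1.00. HIPP replicate 4 was also the lowest HIPP array for XBP1, DNAJB9, HERPUD1 and DDIT3.

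DNAJC3 differed between treatments, being higher with HIPP than in shCtBP2 cells by 1.09 on the log2 scale in the limma fit (adjusted p = 1.2e-04).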

How the results depend on the processing

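Of 1008 single values under an alternative, leaving out no array, 900 kept direction and side of the threshold or, untested, moved by less than 1 SD, 67 changed side, 24 reversed and 17 others moved. Of 1469 with 1 array left out, 1424 kept both, 26 lost and 13 gained a call, and 6 reversed. The cause of these changes was not tested, except that with slide as a block the P4 value leans on replicate 5 by construction. The background-subtracted signals were centred, since uncentred array medians ran from -1.16 to 0.908. Left uncentred, with no dye normalization, CALR with HIPP reversed to -0.23 (-1.16 being a HIPP array). HIPP means of HERPUD1 (-0.32) and PDIA4 (-0.43) also turned below 0. So did those of the XBP1 probes A_23_P120845 (-0.02) and A_24_P100228 (-0.50), of HSP90B1 probe A_24_P150361 (-0.09) and of HSPA5 probe A_24_P18190 (-0.58). DNAJC3, DNAJB9 and SEL1L probe A_23_P88411 (0.985) stayed above 0. Dim probes such as A_24_P219114 limit what a ratio can show. Within-slide means stand beside the results only for DNAJC3, XBP1, DNAJB9 and HERPUD1. On slide 3, CALR averaged 0.50 with HIPP and -0.14 in shCtBP2 cells. On slide 2, SEL1L averaged 0.14 with HIPP and stood at 0.70 on the P4 array, and PDIA4 at 0.17 and 0.87. With HIPP, HSPA5 averaged 0.02 on slide 2 and -0.49 on slide 3, and PDIA6 -0.06 and -0.74.

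Replicate numbers were shared by the treatments without a stated meaning. Same-numbered arrays deviated together at r of -0.0278 to 0.472 (median 0.169, 13 of 15 pairs over 0.1), and other arrays at a median of -0.0871 (19 of 60 over 0.1). The numbers were not taken as a pairing, since not every same-numbered pair was over 0.1. This rule cannot show that a pairing is absent, and the higher median of same-numbered pairs leaves a shared part possible. With the replicate block, 4 members were called with P4 (PDIA6, lower, and HERPUD1, higher, added), 4 with HIPP (PDIA6, lower, added), 2 between HIPP and shCtBP2 (CALR added), 2 between P4 and shCtBP2 (SEL1L and PDIA4), and 3 list genes rose and 11 fell in shCtBP2 cells.

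For genes called of all tested, normexp and loess gave 2437 in shCtBP2 cells (3685 as reported) and 1369 between HIPP and P4 (2641). Slide as a block gave 2255 in shCtBP2 cells, 3068 with P4 (8773), 521 between P4 and shCtBP2 (2983) and 5 between HIPP and P4. Separate fits gave 4799 with P4, and the methods' t-test 5115 with HIPP (13421), 1273 with P4 and 1921 in shCtBP2 cells.

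Against 3 members called with HIPP, 1 was called with background-subtracted signals, 1 in separate fits and 1 by the methods' t-test (DNAJC3 in all of these), and 5 with the brightest probe. Against 2 called with P4, 1 was called with slide as a block, which was PDIA6, lower (-1.01, adjusted p = 0.032), with SEL1L and PDIA4 lost, 1 in separate fits (SEL1L) and 0 by the methods' t-test (3 at an unadjusted p under 0.05). With the fold-change threshold (0), HIPP had 1 with probes well above background, 1 with the brightest probe, 1 with slide as a block and 2 at a threshold of 1.5, and P4 had 1 with the brightest probe, 1 with slide as a block and 2 at 1.5. Between HIPP and P4 (0), 1 was called with normexp, 1 without the variability limit and 1 with probes well above background. Between HIPP and shCtBP2 (1), 3 were called with probes well above background (SEL1L, in this and the last comparison, from unlike probes) and 2 with the brightest probe, and between P4 and shCtBP2 (0), 1 with normexp.

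Of the 4 lists of other endoplasmic reticulum genes, the methods' t-test called 14 higher and 1 lower with HIPP (30 and 10), and 1 and 2 with P4 (11 and 6). With P4, 17 rose with the brightest probe, 4 with slide as a block and 6 in separate fits, and 10 fell with normexp. In shCtBP2 cells (1 higher, 7 lower), 2 rose with normexp, 5 with background-subtracted signals, 4 with probes well above background, 2 with the brightest probe, 7 in separate fits and 3 by the methods' t-test, while 4 fell with slide as a block and 13 in separate fits. ATF4 pathway genes higher in shCtBP2 cells (5) were 3 with slide as a block and 3 by the methods' t-test.

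Leaving out 1 array gave 1705 to 3042 genes and 0 to 1 members between HIPP and P4, 1 to 2 members between HIPP and shCtBP2, 1969 to 3632 genes and 0 to 1 members between P4 and shCtBP2, and 2127 to 4238 genes in shCtBP2 cells. The lowest of these gene counts between treatments came without HIPP replicate 5 (1705) and without P4 replicate 5 (1969). Members called ranged from 1 to 5 with HIPP and from 1 to 3 with P4, and 0 to 1 with the fold-change threshold for both. In shCtBP2 cells, ATF4 pathway genes higher ranged from 2 to 6, and list genes from 0 to 3 higher and 4 to 9 lower.

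Values reversed under slide as a block, other background corrections, other probes or without 1 array. With slide as a block they were CALR -0.16, HSPA5 0.32, PDIA4 -0.53, PDIA6 0.32 and XBP1 0.65 in shCtBP2 cells, DNAJB9 -0.43, HERPUD1 -0.14 and XBP1 -0.43 with P4, and DNAJB9 -0.19 between HIPP and shCtBP2. For probes with P4 they were A_23_P2601 0.096 (HSP90B1), A_24_P18190 -0.30 (HSPA5), A_24_P219114 -0.051 (SEL1L) and A_24_P100228 -0.99 (XBP1). With normexp they were DNAJB9 -0.0029 in shCtBP2 cells, and A_23_P2601 0.0054 and A_24_P18190 -0.013 with P4. With background-subtracted signals they were DNAJB9 -0.012 in shCtBP2 cells, HSP90B1 0.044 and A_23_P2601 0.33 with P4, and A_24_P18190 -0.018 with HIPP. SEC62 with P4 was 0.28 with the brightest probe, and SEL1L between HIPP and P4 was 0.33 with the brightest probe. With probes well above background it was 0.79, which sets 1 probe with HIPP against the mean of 2 with P4 and compares no like values. With 1 array left out, DNAJB9 in shCtBP2 cells ranged from -0.099 to 0.12, ERN1 with P4 from -0.043 to 0.27, A_24_P18190 with P4 from -0.050 to 0.049, and A_24_P100228 from -0.12 to 0.39 with HIPP and -0.068 to 0.33 with P4.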

Other observations

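Partners of the members in the lumen were read after their values were seen. DNAJB11 (ERdj3), a co-chaperone of HSPA5, rose with HIPP by 0.78 ± 0.20 (SD, n = 5) and with P4 by 0.46 ± 0.13 (n = 5), higher on 5 of 5 arrays in each (limma adjusted p = 3.2e-06 and 0.0010), and stood at -0.09 in shCtBP2 cells (adjusted p = 0.55). P4HB and PDIA3, the most abundant disulfide isomerases, rose with HIPP by 0.37 ± 0.10 (n = 5, adjusted p = 0.0014) and 0.44 ± 0.11 (n = 5, adjusted p = 1.5e-04), on 5 of 5 arrays each. With P4, P4HB stood at 0.00 (adjusted p = 0.99) and PDIA3 at -0.14 (adjusted p = 0.15 without the variability limit). The difference between HIPP and P4 was 0.37 for P4HB (adjusted p = 0.049). HYOU1, CANX and SDF2L1, a chaperone of the HSP70 family, the lectin calnexin and a partner of DNAJB11, lay between -0.27 and 0.21 in the 3 treatments and were not called in any, with or without the variability limit.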
